A study of Homo sapiens with 2 samples.

Results

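Imprinted genes are expressed mainly from the copy inherited from 1 parent, and many of them set how much an embryo and its placenta grow. The 9 genes described here are H19, IGF2, DLK1, MEG3, PEG3, PEG10, MEST, CDKN1C and GRB10. They were taken by symbol from the 36601 genes listed in the deposited feature files, and all 9 were found. The rule itself uses no measured value, but the members were chosen with earlier results of these data known.

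The genes were measured by droplet single-cell RNA sequencing of colon organoids grown from the established human iPS (induced pluripotent stem) cell line 1383D6. The CNT library came from untreated organoids and the 3CK library from organoids kept for 8 days with IL-1β, IFN-γ and TNF-α. Both cultures share the same differentiation, which included EGF, forskolin, PD98059 and 5 µM 5-aza-2'-deoxycytidine, an inhibitor of DNA methyltransferases. By its title the series sets up an ulcerative colitis model, and the question asked of these genes is how they differ after exposure to inflammatory cytokines. Each library is 1 culture of this cell line. With 1 library per group no difference below has a replicate check and no test was made. Bracketed ranges are 95% intervals for the error of counting alone.

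After filtering, 2487 CNT cells with 101831571 unique molecular identifiers (UMIs, counted transcripts) and 1398 3CK cells with 91860414 UMIs were kept, with medians of 28911 and 62746 UMIs per cell. No barcode was shared by the libraries. Cells with at least 2 EPCAM UMIs per 10000 are called epithelial (1660 CNT, 1016 3CK), and cells with at least 5 UMIs of COL1A1, COL1A2 and COL3A1 per 10000 and under 1 of EPCAM are called mesenchymal (574 CNT, 124 3CK). The mesenchymal class made up 23.1% of kept CNT cells and 8.87% of kept 3CK cells. These classes are ranges of marker content: 88 CNT and 71 3CK epithelial cells lay within 1 UMI per 10000 above the EPCAM limit. In 302 CNT and 91 3CK cells the epithelial call rests on 1 EPCAM UMI. In the mesenchymal class 53 CNT and 38 3CK cells had a collagen sum from 5 to under 10 per 10000. A further 253 CNT and 258 3CK cells were in neither class. The 10 mesenchymal markers summed to 10614 CPM (UMIs of a gene per 1000000 UMIs) in CNT mesenchymal cells and 518 CPM in CNT epithelial cells, and to 4925 and 96.7 CPM in 3CK. The keratins KRT8 and KRT18 were also present in the mesenchymal class, at 3217 and 4930 CPM in CNT. Of the intestinal markers, the transcription factor CDX2 was at 80.6 CPM in CNT against 83.3 CPM in 3CK epithelium and the cadherin CDH17 at 302 and 183 CPM. FABP1, a fatty acid carrier that liver cells also make, was at 1007 and 139 CPM there and LGALS4, a gut lectin, at 69.8 and 15.4 CPM. The 7 hepatic markers, which include TTR and AFP, summed to 98578 and 32839 CPM in the same cells.

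Imprinting is kept by DNA methylation laid down in the germ line at imprinting control regions. At the H19 and IGF2 locus the factor CTCF binds the unmethylated maternal control region and keeps shared enhancers from IGF2, so H19 is made from the maternal copy and IGF2 from the paternal copy. DLK1, PEG3, PEG10 and MEST are likewise paternally expressed, MEG3 and CDKN1C are maternally expressed, and the expressed copy of GRB10 depends on the tissue. UMI counts do not tell the parental copies apart, so nothing here bears on which copy was read.

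On GRCh38 with GENCODE annotation, H19 lies at chr11:1995166-2004552 on the minus strand and IGF2 at chr11:2129112-2158391 on the same strand, 124.6 kb away. CDKN1C (chr11:2883213-2885775, minus strand) is 724.8 kb further from IGF2. DLK1 (chr14:100725705-100738224) and MEG3 (chr14:100779410-100861031) are 41.2 kb apart on the plus strand. PEG10 (chr7:94656325-94669695, plus), MEST (chr7:130486171-130506465, plus) and GRB10 (chr7:50590063-50793462, minus) lie on chromosome 7, and PEG3 (chr19:56810077-56840728, minus) on chromosome 19. H19 and MEG3 are annotated as long noncoding RNAs and the other 7 as protein-coding genes.

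The 3′ libraries read mostly the end of a transcript, and some of these ends are shared with other listed genes. On the strand of IGF2, the gene ENSG00000240801 (chr11:2129121-2129964) covers 373 of the last 1000 exon bases of IGF2 (37.3%). A read there cannot be given to 1 gene by position and strand, and the sources used here do not give how such reads were counted, so every IGF2 level below is uncertain and may be too low. In mesenchymal cells ENSG00000240801 itself had 93 UMIs in CNT and 37 in 3CK, against 1393 and 738 for IGF2. PEG3 shares 1264 exon bases with ZIM2 on its own strand. H19, DLK1 and CDKN1C overlap no other listed gene, and the remaining members share exon bases at most with genes of the opposite strand, such as COPG2 at the end of MEST.

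The H19 control region holds repeated CTCF sites, and the repeat is shown as a description of this locus. A link between the repeat and the levels of H19 or IGF2 was not tested. A CTCF core motif of 14 bases, the capitals below with any base allowed at the sixth and the ninth, was searched on both strands in the 10000 bases before the RefSeq start of H19. It matched 3 times, at chr11:2002213-2002226, chr11:2002614-2002627 and chr11:2003019-2003032, which are 947, 1348 and 1753 bases before that start, and the GENCODE span of H19 covers these positions. All 3 matches lie on the minus strand and have the same 6 bases on each side, with the match in capitals:
H19 upstream repeat: aagtggCCGCGCGGCGGCAGtgcagg
A match to this core was found in 90 of 35116 such windows (0.256%), and the H19 window was the only one with as many as 3. A match is a description of the letters and not a measurement of binding.

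Promoters from RefSeq (GRCh38.p14) were given for 4 of the 9 genes. They are printed as the 250 bases before a start, 5′ to 3′ on the gene's strand, with CG dinucleotides (the bases that DNA methylation acts on, the same on both strands) in capitals. They are shown because no other member had a promoter in this source. Over all kept cells H19, MEG3 and MEST were lower in 3CK and GRB10 was not, but CDKN1C and DLK1, also lower, have no promoter here. In the mesenchymal class GRB10 was lower in 3CK too (log2 ratio -0.30, -0.47 to -0.13). A link between CG counts and these differences was not tested. RefSeq gives 3 starts for MEG3 and 5 each for MEST and GRB10, and the first listed is shown for MEG3 and GRB10 and the last along the gene for MEST. DNA methylation was not measured here.
H19 promoter, chr11:2001267-2001516, minus strand: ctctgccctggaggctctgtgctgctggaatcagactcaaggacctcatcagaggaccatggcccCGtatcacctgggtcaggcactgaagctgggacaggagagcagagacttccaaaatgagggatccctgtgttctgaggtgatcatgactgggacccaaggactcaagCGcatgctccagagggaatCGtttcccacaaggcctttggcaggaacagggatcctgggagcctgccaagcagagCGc
MEG3 promoter, chr14:100825858-100826107, plus strand: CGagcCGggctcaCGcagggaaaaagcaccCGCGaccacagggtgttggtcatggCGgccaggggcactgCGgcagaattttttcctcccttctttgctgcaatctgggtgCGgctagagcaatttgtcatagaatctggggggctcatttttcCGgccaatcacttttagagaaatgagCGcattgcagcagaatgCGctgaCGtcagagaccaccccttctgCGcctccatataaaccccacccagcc
MEST promoter, chr7:130491835-130492084, plus strand: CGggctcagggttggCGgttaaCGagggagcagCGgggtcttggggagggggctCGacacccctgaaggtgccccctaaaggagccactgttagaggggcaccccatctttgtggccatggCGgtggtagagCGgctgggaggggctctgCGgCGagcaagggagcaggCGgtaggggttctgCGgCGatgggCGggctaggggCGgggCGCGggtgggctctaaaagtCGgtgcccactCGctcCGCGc
GRB10 promoter, chr7:50793454-50793703, minus strand: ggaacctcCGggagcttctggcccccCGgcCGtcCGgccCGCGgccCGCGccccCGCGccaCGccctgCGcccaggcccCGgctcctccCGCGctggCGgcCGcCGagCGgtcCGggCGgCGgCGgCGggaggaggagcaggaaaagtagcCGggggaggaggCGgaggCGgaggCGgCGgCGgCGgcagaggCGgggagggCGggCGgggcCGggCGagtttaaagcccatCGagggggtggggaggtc
The H19 stretch has 4 CG dinucleotides, and 29.3% of the 35116 promoters have fewer. MEG3 has 13, MEST 20 and GRB10 37, against a median of 11 over all promoters. Other starts of MEST and GRB10 have from 9 to 20 and from 2 to 40, so the counts belong to the starts shown.

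H19, MEST and MEG3 also host microRNAs, of which RefSeq gives 6 mature forms. The 4 shown, both of H19 and 1 each of MEST and MEG3, are printed with the seed (bases 2 to 8) in capitals. The 3′ poly-A libraries count the host transcript and not the mature microRNA.
hsa-miR-675-5p in H19: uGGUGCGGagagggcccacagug
hsa-miR-675-3p in H19: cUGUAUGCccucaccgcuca
hsa-miR-335-5p in MEST: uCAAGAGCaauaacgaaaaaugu
hsa-miR-770-5p in MEG3: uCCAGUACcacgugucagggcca
No 2 of these forms share a seed.

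Over all kept cells, 8 of the genes reached 10 CPM in 1 or both libraries, and 5 of them were at least 2-fold lower in 3CK, and none was 2-fold higher. The 5 were H19, CDKN1C, MEG3, MEST and DLK1. Over all 10259 genes at that level, 7.34% were 2-fold lower and 6.43% were 2-fold higher. The median log2 ratio of the 8 genes was -1.68, beside 0.01 over all genes. PEG3, a zinc finger gene, was left out of this count because it reached only 9 UMIs in CNT and 1 in 3CK. In a sum over all cells, fewer cells of a type and less RNA per cell cannot be told apart, and mesenchymal cells carried 19.3% of CNT UMIs and 9.92% of 3CK UMIs.

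In all kept cells H19, a maternally expressed long noncoding RNA of fetal tissues, stood at 834 CPM in CNT against 168 CPM in 3CK, 4.97-fold lower (log2 ratio -2.31, -2.34 to -2.29). CDKN1C, the cyclin-dependent kinase inhibitor p57, stood at 451 and 98.3 CPM (log2 ratio -2.20, -2.23 to -2.17). These were the largest differences among the 8. MEG3, a maternally expressed long noncoding RNA, was at 176 and 43.6 CPM (log2 ratio -2.01, -2.06 to -1.96). MEST, an enzyme of the hydrolase fold family made in embryonic mesoderm, was at 230 and 70.0 CPM (log2 ratio -1.72, -1.76 to -1.68). DLK1, a membrane protein related to NOTCH ligands that restrains fat cell differentiation, was at 648 and 207 CPM (log2 ratio -1.65, -1.67 to -1.62). PEG10, a gene derived from a retrotransposon and needed for the placenta, was just under 2-fold lower, at 184 and 95.9 CPM (log2 ratio -0.94, -0.97 to -0.90), and came to -1.03 with a total that leaves out mitochondrial and ribosomal genes and the 50 of highest count. The smallest differences were those of the last pair. IGF2, the fetal growth factor, was at 16.1 and 13.1 CPM (log2 ratio -0.31, -0.41 to -0.20), and GRB10, an adaptor that dampens insulin and IGF receptor signalling, at 55.0 and 61.6 CPM (log2 ratio 0.16, 0.11 to 0.22).

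The cell classes differed strongly in these genes. In CNT, H19, IGF2, DLK1, MEG3 and MEST were each at least 2-fold higher in mesenchymal than in epithelial cells, and CDKN1C and PEG10 at least 2-fold lower. Over all 10891 genes at 10 CPM, 21.1% were 2-fold higher in the mesenchymal class and 12.2% in the epithelial class. In 3CK the same 5 were higher in the mesenchymal class and none of the 8 was 2-fold lower, against 15% and 13.3% of 10317 genes. H19 stood at 3127 CPM in CNT mesenchymal and 226 CPM in CNT epithelial cells, and at 1440 and 18.1 CPM in 3CK. For MEG3 the CNT values were 799 and 16.5 CPM, and for MEST 890 and 60.4 CPM. DLK1 was at 2698 and 143 CPM. The size of these gaps depended on how cells were weighted: with each cell given equal weight, the CNT log2 ratio of mesenchymal over epithelial cells for H19 was 1.72 in place of 3.79, and for IGF2 2.26 in place of 4.93.

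CDKN1C had the opposite pattern, with its higher level in the epithelium. It was at 565 CPM in CNT epithelial cells and 99.4 CPM in CNT mesenchymal cells, a log2 ratio of -2.51 (-2.57 to -2.44), or -1.23 with equal weight per cell. In 3CK the epithelial level was 111 CPM and the mesenchymal level 72.1 CPM, a log2 ratio of -0.62 (-0.74 to -0.51). PEG10 stood at 214 CPM in CNT epithelial and 98.7 CPM in CNT mesenchymal cells, a log2 ratio of -1.11, which equal weight per cell brought to -0.50. GRB10 was the most even gene, at 47.7 and 52.9 CPM in CNT and 56.3 and 43.0 CPM in 3CK.

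**Figure D1:**
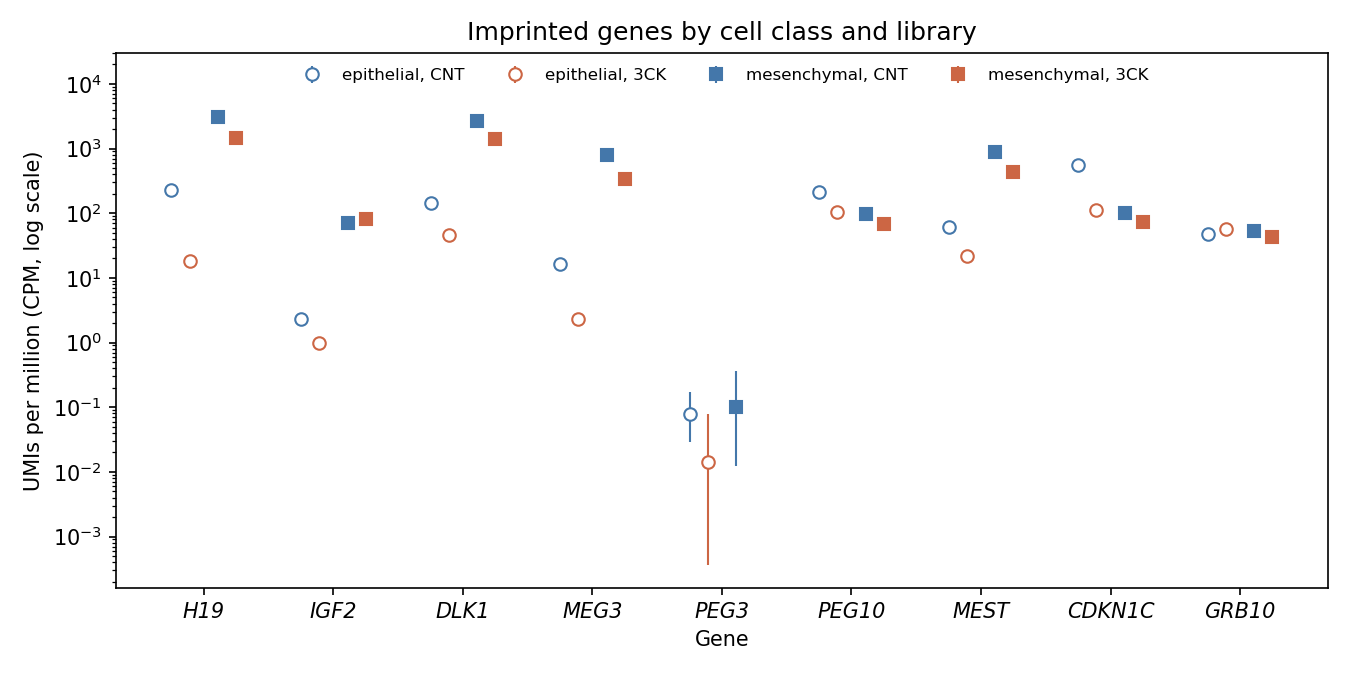
CPM (log axis) of the 9 genes in epithelial cells (open circles) and mesenchymal cells (filled squares) of the CNT (blue) and 3CK (orange) libraries, with 95% Poisson intervals, mostly smaller than the symbols. H19 runs from 18.1 CPM in 3CK epithelium to 3127 CPM in CNT mesenchyme, CDKN1C is highest in CNT epithelium at 565 CPM, and PEG3, with no point for 3CK mesenchyme where it had 0 UMIs, sits under 1 CPM throughout.

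In the epithelial class, 6 of the 7 genes at 10 CPM were at least 2-fold lower in 3CK and none was 2-fold higher, beside 7.62% and 7.88% of all 9786 genes. When the epithelium was limited to cells with under 1 collagen UMI per 10000 (863 CNT and 893 3CK cells), the count was 3, namely H19, CDKN1C and PEG10. MEG3 fell under 10 CPM in these cells, and the share of all genes was not counted for them. The larger count therefore holds only for an epithelial class that includes barcodes above this collagen limit. In a barcode with under 10000 UMIs, 1 collagen UMI exceeds the limit, so it also removes shallow barcodes. The part of depth in the smaller count was not tested. In the whole class, 497 CNT and 49 3CK epithelial cells had 5 or more collagen UMIs per 10000. Of these, 70 CNT and 13 3CK cells had at least 10000 UMIs. COL1A1 in the epithelial class was itself at 119 CPM in CNT against 13.0 CPM in 3CK, and the part of such barcodes in the lower levels was not tested beyond this limit.

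H19 had the largest epithelial difference, from 226 to 18.1 CPM (12.5-fold, log2 ratio -3.65, -3.73 to -3.56). In the epithelium low in collagen it was at 74.1 CPM in CNT against 10.1 CPM in 3CK (log2 ratio -2.88, -3.00 to -2.76). CDKN1C went from 565 to 111 CPM over all epithelial cells and from 592 to 106 CPM in those low in collagen, log2 ratios of -2.35 and -2.48. PEG10 was at 214 and 105 CPM, and at 209 and 103 CPM in the cells low in collagen, log2 ratios of -1.03 and -1.01. Its call sat at the 2-fold line, since TMM scaling gave -0.99 and equal weight per cell -0.98.

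For DLK1, MEST and MEG3 the log2 ratios were closer to 0 with the collagen sum under 1 per 10000. DLK1 was at 143 and 46.0 CPM over all epithelial cells (log2 ratio -1.64, or -2.52 with equal weight per cell) and at 42.4 and 26.7 CPM in those low in collagen (log2 ratio -0.67). MEST went from 60.4 to 21.6 CPM and then from 31.9 to 19.5 CPM, log2 ratios of -1.48 and -0.71. MEG3 was at 16.5 and 2.33 CPM, and in the cells low in collagen at 4.26 and 1.70 CPM, under the 10 CPM used for counts. IGF2 had 177 epithelial UMIs in CNT and 68 in 3CK (log2 ratio -1.26, -1.69 to -0.85), and in the cells low in collagen 38 and 50 UMIs (log2 ratio 0.17, -0.47 to 0.82). GRB10 differed least, at 47.7 and 56.3 CPM (log2 ratio 0.24, 0.18 to 0.31).

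**Figure D2:**
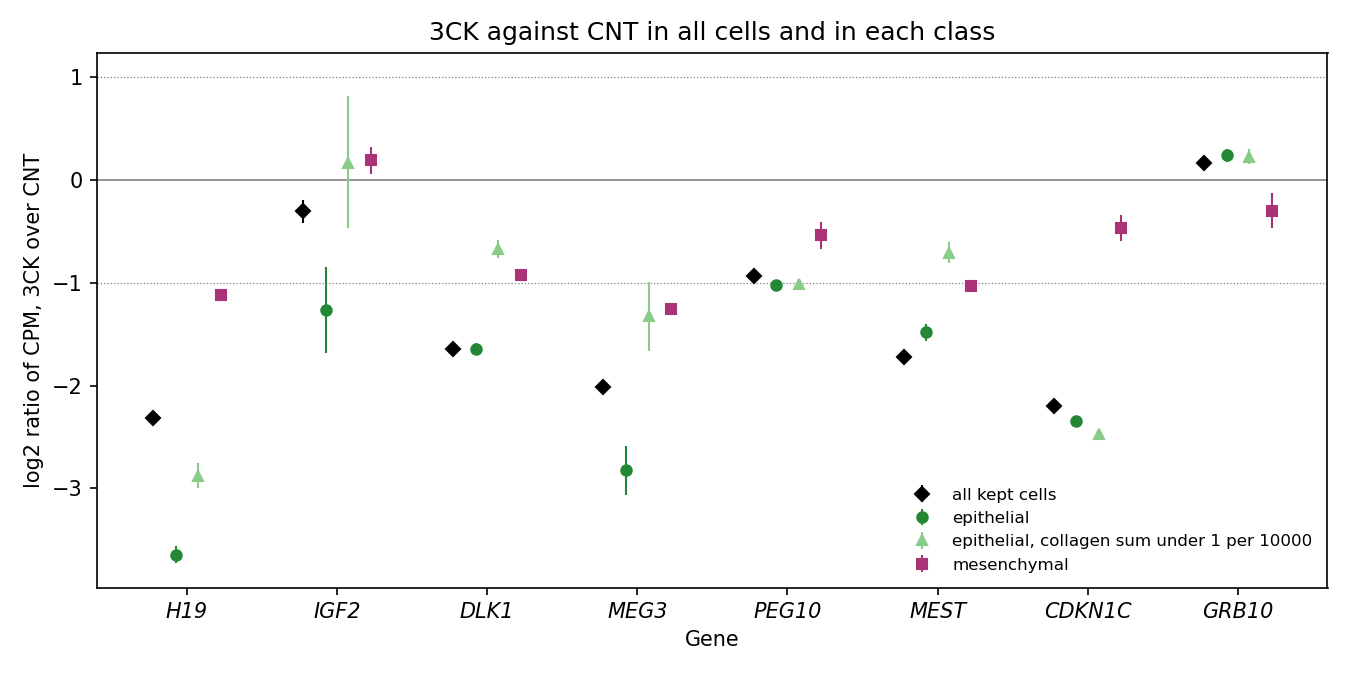
Log2 ratio of CPM, 3CK over CNT, for 8 genes in all kept cells (black diamonds), epithelial cells (dark green circles), epithelial cells with a collagen sum under 1 per 10000 (light green triangles) and mesenchymal cells (purple squares), with 95% counting intervals; dotted lines mark 2-fold and PEG3 is left out for its 10 UMIs in all. CDKN1C and PEG10 change little between the epithelial definitions (-2.35 and -2.48, -1.03 and -1.01), while DLK1 moves from -1.64 to -0.67 and IGF2 from -1.26 to 0.17.

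Among epithelial cells with at least 10000 UMIs (1013 CNT, 730 3CK), the ratios varied with the collagen range. In the 55 CNT and 218 3CK cells with no collagen UMI, H19 was at 81.3 and 14.9 CPM (log2 ratio -2.45) and CDKN1C at 606 and 100.1 CPM (log2 ratio -2.60). DLK1, with 115 and 249 UMIs there, was lower in 3CK (log2 ratio -1.81, -2.13 to -1.48), by about as much as in the whole class. PEG10 was under 2-fold lower there, at 141 and 83.5 CPM (log2 ratio -0.75, -0.92 to -0.57), and GRB10 was lower in 3CK, at 83.0 and 56.1 CPM (log2 ratio -0.57, -0.79 to -0.34). In the 654 CNT and 440 3CK cells with a collagen sum above 0 and up to 1 per 10000, H19 was at 68.7 and 7.32 CPM and CDKN1C at 592 and 108 CPM. The fibroblast genes COL1A1, which is part of the collagen sum, and DCN differed less there, at 17.4 and 10.8 CPM and at 7.08 and 5.14 CPM. In cells with 5 or more, H19 reached 1379 CPM in the 70 CNT cells and 275 CPM in the 13 3CK cells, DLK1 was at 1028 and 1076 CPM and PEG10 at 181 and 174 CPM. H19 and CDKN1C were thus lower in 3CK in each range, while the size for DLK1 and PEG10 and the direction for GRB10 depended on the range. Barcodes with under 500 genes, which were removed, held H19 at 1498 CPM in CNT (412 barcodes) and 113 CPM in 3CK (52 barcodes). COL1A1 was at 937 and 42.4 CPM there, so both genes were also lower in these barcodes of 3CK. The 3CK values rest on 8 H19 UMIs (48.8 to 223 CPM) and 3 COL1A1 UMIs (8.74 to 124 CPM). The part of free RNA in the epithelial levels was not tested.

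**Figure D3:**
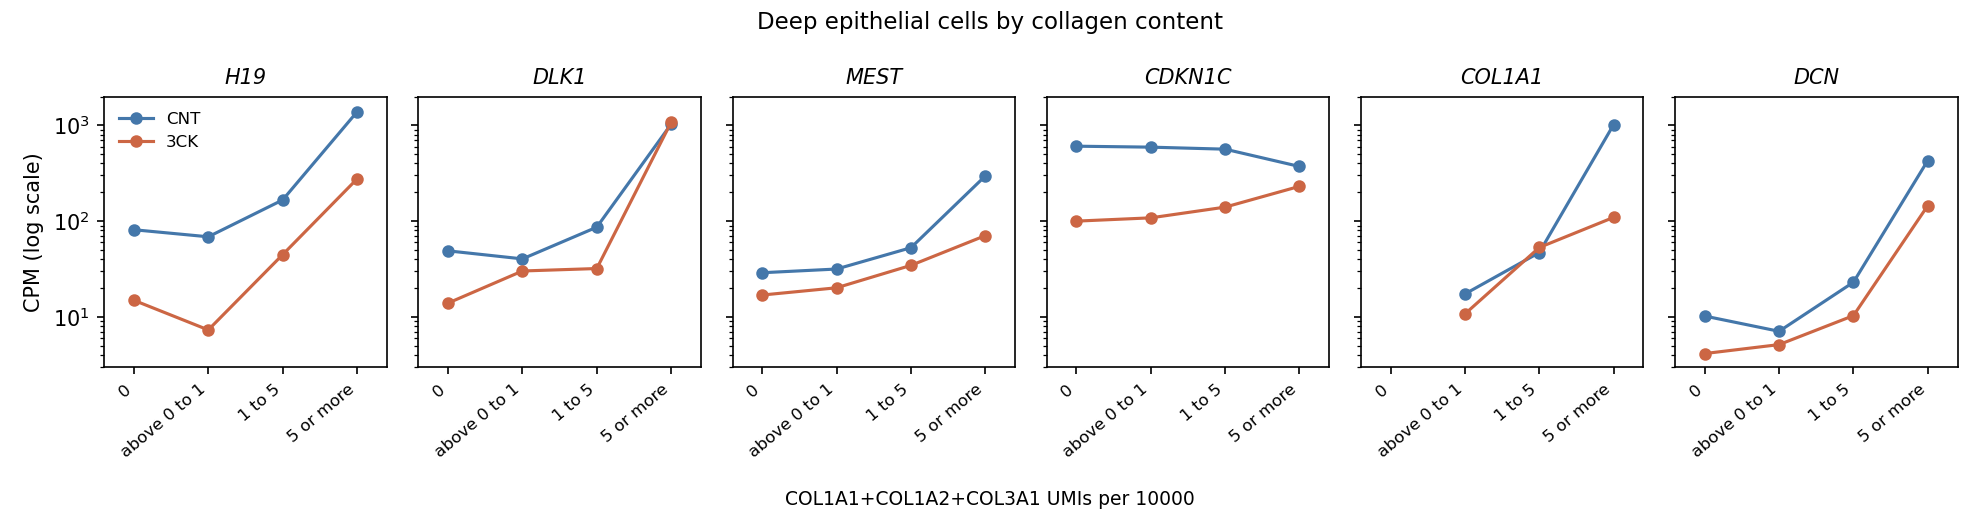
CPM (log axis) of H19, DLK1, MEST, CDKN1C, COL1A1 and DCN in epithelial cells with at least 10000 UMIs, by their collagen UMIs per 10000, in CNT (blue) and 3CK (orange); a point is the sum over the cells of a range and zero values are not drawn. H19 is highest in the range with most collagen in both libraries (1379 and 275 CPM), while CDKN1C stays between 372 and 606 CPM in CNT and 3CK lies below CNT in every range of H19 and CDKN1C.

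Shares of cells with a UMI were compared at equal depth. After each cell was reduced to 5000 UMIs (leaving out 598 CNT and 240 3CK shallower epithelial cells), H19 had a UMI in 27.8% (25.1 to 30.6) of CNT and 5.03% (3.60 to 6.81) of 3CK epithelial cells, by exact Clopper-Pearson intervals. CDKN1C had one in 65.5% and 29.9%. Without thinning the H19 shares were 86.3% and 26.0%, in cells of median 37785 and 72198 UMIs. COL1A1, a fibroblast collagen that epithelial cells should lack, had a UMI in 16.4% and 4.51% of the same cells. LUM, a fibroblast matrix gene, had one in 26.1% and 8.89%, and DCN in 8.19% and 2.71%. The H19 shares lie close to LUM in CNT and to COL1A1 in 3CK. This background differs between genes and between the libraries, so no difference in the share of H19-expressing cells is read. The CDKN1C shares stand above those of the fibroblast genes in both libraries, but fibroblast genes do not gauge stray epithelial RNA. In thinned mesenchymal cells CDKN1C had a UMI in 19.7% of CNT and 20.6% of 3CK cells. DLK1 (22.3% and 11.2%) lies between COL1A1 and LUM in CNT and above COL1A1, LUM and DCN in 3CK. MEST (17.1% and 8.12%) lies between COL1A1 and LUM in both libraries, and MEG3 (3.95% and 0.387%) lies under all of these genes. PEG3 had 6 and 1 epithelial UMIs in all, too few for a share.

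CDKN1C differed across the epithelium with TTR, a carrier of thyroid hormone and the most abundant hepatic marker here. In deep CNT epithelial cells it was at 628 CPM with at least 300 TTR UMIs per 10000, 492 CPM between 30 and 300, and 109 CPM below 30. The 3CK values were 204, 96.9 and 51.7 CPM, so 3CK was lower in each range. The libraries held different shares of these ranges, with 696, 257 and 60 CNT cells and 151, 423 and 156 3CK cells. H19 stood at 163 and 12.5 CPM in the highest TTR range and 369 and 13.5 CPM in the lowest. PEG10 differed less below 30 (155 and 119 CPM) than at 300 or more (201 and 76.2 CPM). DLK1 was at 99.0 and 18.9 CPM at 300 or more. Below 30 it was at 29.8 and 26.3 CPM (log2 ratio -0.18, -0.47 to 0.12), with no clear difference. MEG3 had a log2 ratio of -3.83 at 300 or more. Below 30, with 11 and 55 UMIs, it was 0.71 (-0.24 to 1.79).

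The direction of GRB10 depended on the TTR range. It was lower in 3CK at 300 or more (39.4 and 30.6 CPM) and between 30 and 300 (67.2 and 46.3 CPM), and higher below 30 (66.4 and 116 CPM). Only the range below 30, with 60 CNT and 156 3CK cells, thus had more GRB10 in 3CK. The libraries also differ in the shares of these ranges. The part of these shares in the higher epithelial level of GRB10 in 3CK was not tested. GRB10 also followed MALAT1, a nuclear-retained long noncoding RNA, with Pearson r 0.59 over 1458 deep CNT cells and 0.69 over 995 deep 3CK cells, a description over cells that share a library and differ in depth.

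**Figure D4:**
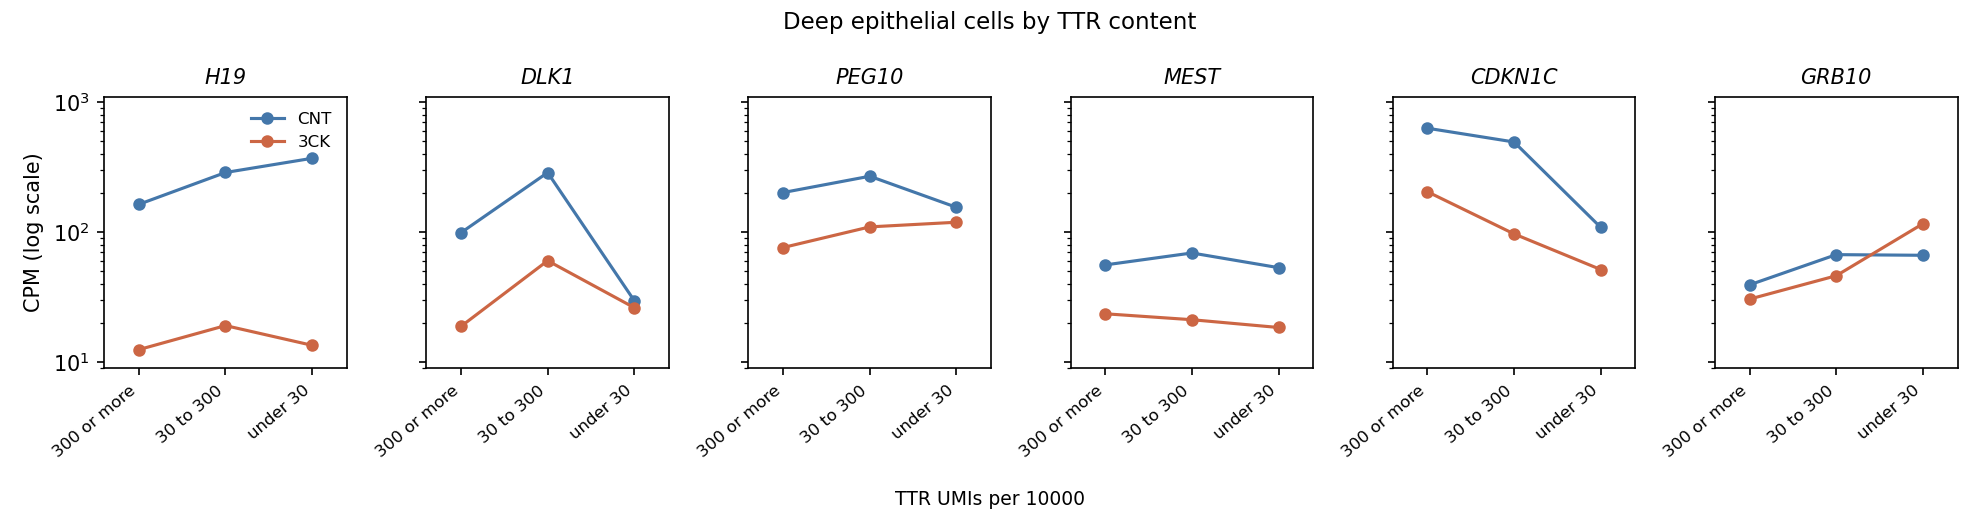
CPM (log axis) of 6 genes in epithelial cells with at least 10000 UMIs, in ranges of TTR UMIs per 10000, in CNT (blue) and 3CK (orange); a point is the sum over the cells of a range. CDKN1C goes from 628 to 109 CPM across the CNT ranges, 3CK lies below CNT for H19, PEG10, MEST and CDKN1C in every range, and GRB10 crosses over below 30 (66.4 CPM in CNT, 116 CPM in 3CK). The DLK1 points lie close together below 30 (29.8 CPM in CNT, 26.3 CPM in 3CK).

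Within the mesenchymal class 3 of the 8 genes were at least 2-fold lower in 3CK, H19, MEG3 and MEST, and none was 2-fold higher, against 9.59% and 4.8% of 10272 genes. The median was -0.73, beside -0.12 over all genes. The count is 1 (MEG3) with TMM scaling, which shifts the all-gene median by 0.18 here, and 4 with a class drawn from DCN, LUM, PDGFRA and PDGFRB in place of the collagens (H19 -1.57, MEG3 -1.52, MEST -1.32 and DLK1 -1.18 on the log2 scale). Stricter classes also gave 4, but of other members: PEG10 (-1.12), MEG3 (-1.08), CDKN1C (-1.03) and DLK1 (-1.01), with H19 and MEST under 2-fold. MEG3 is in each of these sets. H19 stood at 3127 CPM in 574 CNT cells and 1440 CPM in 124 3CK cells (log2 ratio -1.12, -1.15 to -1.09), and was -0.72 with stricter classes that left 30 3CK cells. MEG3 was at 799 and 335 CPM (log2 ratio -1.25, -1.31 to -1.20), but -0.28 with equal weight per cell. MEST was at 890 and 435 CPM (log2 ratio -1.03, -1.08 to -0.98), and -0.56 with equal weight per cell. After thinning, H19 had a UMI in 94.7% and 79.4% of mesenchymal cells, MEST in 82.5% and 65.4% and MEG3 in 62.5% and 48.6%. COL1A1, a fibrillar collagen used in the class rule, was at 3010 and 906 CPM in the same cells, and DCN, a matrix proteoglycan, at 1210 and 1208 CPM.

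The other 5 were under 2-fold with the classes as first defined. DLK1 was at 2698 and 1423 CPM (log2 ratio -0.92, -0.95 to -0.90), PEG10 at 98.7 and 67.9 CPM and CDKN1C at 99.4 and 72.1 CPM (log2 ratio -0.46, though -1.67 with equal weight per cell). GRB10 was at 52.9 and 43.0 CPM. IGF2, the paternal partner of H19, was at 70.9 and 81.0 CPM (log2 ratio 0.19, 0.06 to 0.32), opposite in direction to H19, though its sign turned with stricter classes (-0.12). Epithelial RNA was also found in this class, since TTR had a UMI in 96.6% of thinned CNT and 63.6% of thinned 3CK mesenchymal cells, and CDKN1C in 19.7% and 20.6%. The part of such RNA in the mesenchymal levels of CDKN1C and PEG10 was not tested. In the cells of neither class IGF2 was 2.53-fold higher in 3CK, at 12.3 and 31.2 CPM (74 and 394 UMIs).

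**Figure D5:**
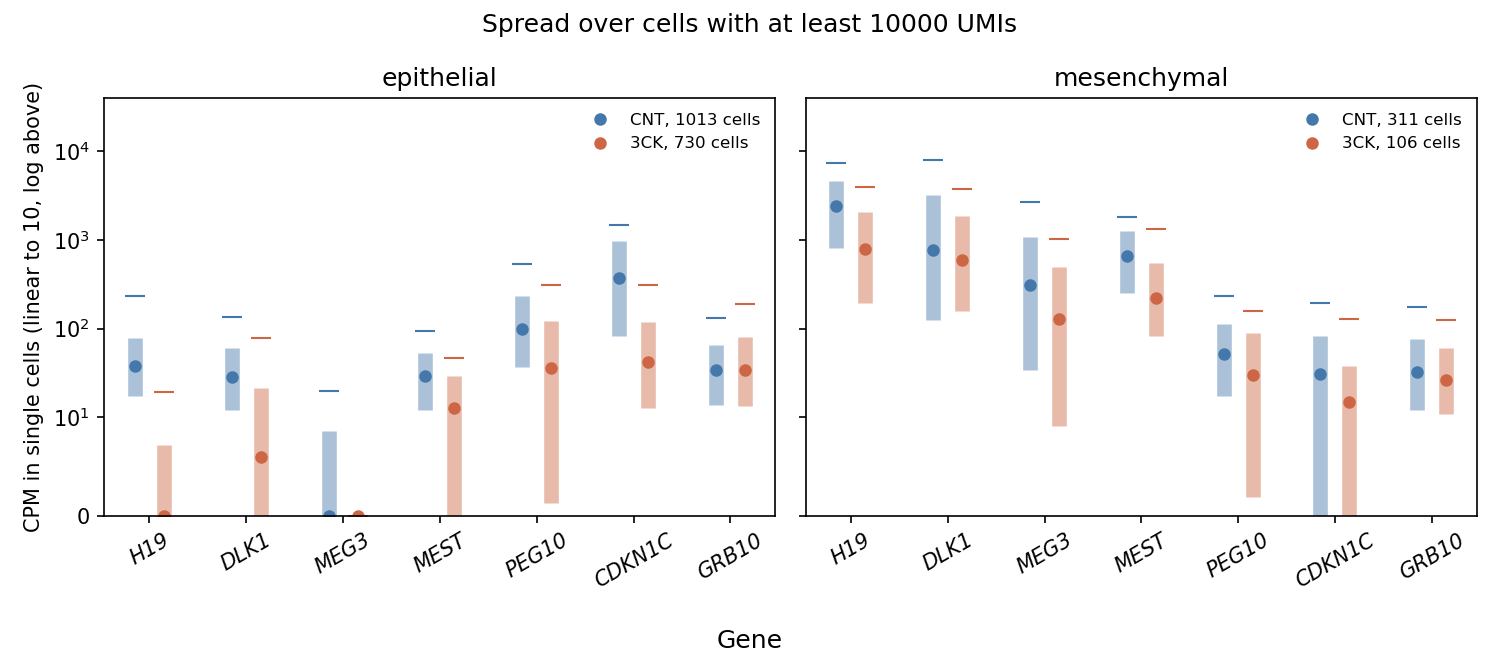
Spread of CPM in single cells with at least 10000 UMIs, in epithelial (left) and mesenchymal (right) cells of CNT (blue) and 3CK (orange); points are medians, bars the middle 50% of cells and dashes the 90th percentile, on an axis linear to 10 and logarithmic above. The median of H19 is 2437 CPM in CNT mesenchymal cells and 801 CPM in 3CK, and CDKN1C in epithelial cells goes from 368 to 42.4 CPM.

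Expression was uneven among cells. In deep CNT epithelial cells the 10% of cells with most carried 84.2% of H19 UMIs and 80.5% of DLK1 UMIs, but 35.1% of CDKN1C UMIs. Among these deep cells, the 70 in the highest collagen range (5 or more) held 9106 of 15192 H19 UMIs and 6790 of 10214 DLK1 UMIs. Whether H19 and DLK1 are as uneven in epithelial cells outside this range was not tested. In deep mesenchymal cells the median of H19 was 2437 CPM in CNT (311 cells) and 801 CPM in 3CK (106 cells), and that of MEST 667 and 221 CPM. H19 had a UMI in each of the 311 deep CNT mesenchymal cells and IGF2 in 112 of them. In 3CK, 49 cells held both, 53 H19 alone, 1 IGF2 alone and 3 neither. For DLK1 and MEG3 the CNT numbers were 236 with both, 58 with DLK1 alone, 16 with MEG3 alone and 1 with neither.

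Some of these genes differed between cycling and non-cycling cells. In deep cells with at least 1 MKI67 or TOP2A UMI per 10000, both genes of dividing cells, CDKN1C was at 272 CPM in CNT epithelium, against 606 CPM in cells with neither, and 3CK gave 52.3 and 125 CPM. In the mesenchyme the CNT values were 30.8 and 122 CPM and the 3CK values 21.3 and 107 CPM. The cycling epithelial cells were only 39 in CNT and 27 in 3CK. TTR was also lower in them, at 54879 against 67449 CPM in CNT and 7672 against 21138 CPM in 3CK. The part of TTR content in the epithelial CDKN1C levels was not tested. IGF2 in cycling mesenchymal cells was at 32.6 CPM in CNT (58 cells) and 95.8 CPM in 3CK (26 cells), and in non-cycling cells at 86.8 and 78.2 CPM. DLK1 was at 1326 CPM in cycling and 3158 CPM in non-cycling CNT mesenchymal cells, but at 1412 and 1411 CPM in 3CK.

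The genes closest to each member were ranked by the lower of the Pearson r of the CNT and 3CK libraries over 1458 and 995 deep cells, among 8818 genes. For H19 they were COL3A1 (r 0.79 and 0.81), COL1A1 and MEST. MEG3 was closest to MEG8 (r 0.95 and 0.93), a noncoding RNA of the same imprinted cluster. DLK1 was closest to DCN (0.73 and 0.67), CTHRC1 and COL3A1, and MEST to H19, COL1A1 and COL3A1. CDKN1C was closest to NEU1 (0.59 and 0.46), ACAA1 and MSMO1, GRB10 to TBC1D22A (0.67 and 0.75), COP1 and MKLN1, IGF2 to GNG11 (0.49 and 0.55), LGALS1 and DCN, and PEG10, weakly, to CD24 (0.20 and 0.22). These values pool epithelial and mesenchymal cells, so genes shared by a class rank high.

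Among other imprinted genes, 22 of the 55 found reached 10 CPM in 1 or both libraries. In all kept cells 3 were at least 2-fold lower in 3CK (MEG8 -2.20, DDC -2.19 and KCNQ1OT1 -1.52 on the log2 scale, the last named after its value was seen) and 1 was 2-fold higher (ASCL2, 4.60), with a median of -0.33, beside 7.34% lower, 6.43% higher and a median of 0.01 over all genes. ASCL2, a transcription factor of intestinal stem cells, was at 0.481 CPM in CNT against 11.7 CPM in 3CK. PHLDA2, a placental growth suppressor next to CDKN1C, was at 162 and 299 CPM, opposite in direction to CDKN1C. GNAS, the stimulatory G protein alpha subunit, was at 1065 and 721 CPM.

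The partner genes are read against the same shares of all genes, 6.43% higher and 7.34% lower. Of 21 IGF signalling genes at that level, 1 was at least 2-fold higher (STC2, an inhibitor of the IGF-releasing protease PAPPA, 26.9 and 64.5 CPM) and none 2-fold lower. IGF1R, the receptor for IGF2, was at 104 and 61.5 CPM and PAPPA at 121 and 68.1 CPM. In the NOTCH list, 7 genes reached 10 CPM, of which HES4, a transcriptional repressor of the pathway, was at 187 and 417 CPM and the receptor NOTCH3 at 16.6 and 6.75 CPM. Among 11 CDK inhibitors and G1 cyclins, CDKN2A, CDKN2B and CCND1 were at least 2-fold higher and none 2-fold lower, opposite to CDKN1C, with CDKN2B named after its value was seen. CDKN2A, which encodes the inhibitor p16, was at 11.3 and 38.4 CPM. None of 15 DNA methylation and imprint upkeep genes differed 2-fold, the largest difference being that of TET1, a 5-methylcytosine oxidase, at 28.7 and 14.9 CPM. Of 15 oncofetal genes 3 were lower (DUSP9, AFP and GPC3) and 1 higher (HMGA1), with AFP at 5529 and 1718 CPM.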

How the data were processed

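The deposited matrices hold whole-number counts of UMIs per gene and barcode, made by the authors with Cell Ranger 7.1.0 (per the file headers) on GRCh38 (per the submitters' processing notes) from 3′ v3.1 libraries of about 8300 loaded cells each. Whether intronic reads were counted is not given in the sources used here. The deposited 3257 CNT and 1641 3CK barcodes were filtered to at least 500 genes (412 and 52 removed) and at most 20% mitochondrial UMIs (306 and 175 removed). The highest Scrublet scores (scanpy 1.11.5) were then removed at 0.8% per 1000 barcodes (52 and 16).

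Counts were summed over the cells of a class and divided by all their UMIs (CPM). A single library per group leaves no spread between replicates, so no test was made. Each level has an exact Poisson interval and each ratio an exact binomial interval. A gene was counted as higher or lower from 2-fold, if 1 library reached 10 CPM. The 3-UMI floor is 0.0295 CPM in CNT and 0.0327 CPM in 3CK over all kept cells. Correlations use log2(UMIs per 10000 + 1). The calculations were tested on simulated counts.

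All 9 members are named. From each list the 3 most abundant genes and the 2 largest and 2 smallest ratios could be named, and for each member with at least 10 CPM in both libraries the 3 most similar genes. The members and lists were chosen with earlier results of these data known. The overlap with other listed genes was examined after the levels were known. Promoters and microRNAs are from RefSeq (GRCh38.p14) and positions from GENCODE, matched by symbol or gene ID (36366 of 36601 IDs matched). The alternatives tried were other cell filters, doublet rates, class boundaries, scalings (TMM, and a total without the most abundant genes), cell weights, depth and CPM limits.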

Additional observations from a re-analysis of the deposited data

Results flagged for a closer look

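The log2 ratio of 3CK to CNT had opposite signs in the classes for IGF2, at -1.26 in epithelial cells (177 and 68 UMIs) and 0.19 in mesenchymal cells (1393 and 738 UMIs). The difference between these ratios was not tested, because each class comes from the same single pair of libraries. Neither sign was stable: the epithelial ratio was 0.17 in cells with under 1 collagen UMI per 10000, and the mesenchymal ratio was -0.12 under stricter classes.

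GRB10 also had opposite signs, at 0.24 in epithelial cells and -0.30 in mesenchymal cells, and this difference was not tested either. Both values lie well under 2-fold. With each cell weighted equally they were 0.08 and -0.08.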

How the results depend on the processing

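Of 425 alternative values of the members' log2 ratios over 11 settings, 420 kept the sign of the reported value, while 193 lay outside its counting interval. The counts of members 2-fold higher in 3CK stayed at 0, and those of members higher in mesenchymal cells at 5, under each alternative. The epithelial count of lower members was 3 in place of 6 with a collagen sum under 1 per 10000, where the IGF2 log2 ratio turned to 0.17. The mesenchymal count was 1 in place of 3 with TMM, and 4 with non-collagen markers, with stricter classes and with a stricter cell filter. For other imprinted genes, the lower count of 3 became 6 with a total without mitochondrial, ribosomal and the 50 most abundant genes and 8 from 1 CPM, and the higher count of 1 became 2 and 3 under the same settings, 0 from 50 CPM and 0 with each cell weighted equally. The causes of these moves were not tested, except that a lower CPM limit admits more genes. The shares of all genes were not counted under the alternative settings. The moved counts therefore have no background beside them and are not read as results about the listed genes. TMM shifted the all-gene median by 0.18 in the mesenchymal comparison and by -0.39 (CNT) and -0.18 (3CK) between classes, where the CNT ratio of GRB10 turned to -0.23, and the other total shifted it by -0.12 in epithelial cells. CDKN1C in mesenchymal cells was -1.03 under stricter classes, DLK1 there was -1.02 under a stricter cell filter, and MEST was -0.85 with TMM. Depth limited PEG3, with 10 UMIs in all, and IGF2 in the epithelium. No paired analysis was possible because each group is 1 library, and no library could be left out.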

Other observations

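The barcodes removed for a high mitochondrial share (306 CNT, 175 3CK) held MEG3 at 750 CPM (CNT) and 18.0 CPM (3CK), H19 at 758 and 54.7 CPM, and GRB10 at 120 and 123 CPM. GRB10 was thus the only one of these 3 with like levels in both. Within deep mesenchymal cells, DLK1 and its neighbour MEG3 had a Pearson r of -0.16 in CNT (311 cells) and -0.38 in 3CK (106 cells), while H19 and MEST had 0.36 and 0.56. These are descriptions over cells of 1 library each.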
